A study of Mus musculus with 6 samples.

Results

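The 33 genes described here belong to the antigen-presentation machinery of the mouse major histocompatibility complex (MHC), measured by RNA sequencing of sorted DN3 thymocytes. They were taken by name: every row whose symbol begins with H2-, plus B2m, Cd74, Ciita, Tap1, Tap2 and Tapbp, with at least 20 counts summed over the 6 libraries. Of the 24015 symbols in each count file, 50 had such a name, and 33 of these reached the count minimum: 20 of class I, 11 of class II, and H2-Ke2 and H2-Ke6, which carry the locus name but encode no MHC molecule. Just inside the minimum were H2-M2, with 24 counts, and H2-Eb2, with 38. Just outside it were H2-M10.2, with 9, and H2-M5, with 10. The other 15 names, among them H2-L, H2-Q6, H2-Q7, H2-Q8, H2-Q9 and H2-T9, were listed at 0 in every library. The filter on low counts left 31 of the 33 for testing, 19 of class I and 10 of class II, with H2-Ke2 and H2-Ke6. H2-M2 and H2-Eb2 did not pass it.

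The study asked what the isoforms of Tcf1, the transcription factor encoded by Tcf7, do in T cell development. It compared 3 groups of 2 libraries each: controls (labelled wild type), p45-deficient mice (p45-/-), which lack the long Tcf1 isoforms, and Tcf1-deficient mice (Lck-cre+ Tcf1 fl/fl), in which Cre driven by the T-lineage promoter of Lck removes the floxed gene. The cells were sorted as CD4-, CD8-, CD44 low and CD25 high. The labels give no age, sex, strain or H2 haplotype, do not say whether animals were pooled, and name neither the floxed allele nor Cre in the controls. No label ties the 2 replicates to different mice, and the p-values below therefore cover the variation between libraries, possibly technical, and no more.

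Class I molecules are built from a heavy chain, such as those of H2-K1 and H2-D1, and the shared light chain beta-2 microglobulin, the product of B2m. They are found on most nucleated cells and show peptides, pumped into the endoplasmic reticulum by the Tap1-Tap2 transporter and loaded with the help of tapasin (Tapbp), to CD8 T cells. The genes of the H2-Q, H2-T and H2-M regions encode nonclassical heavy chains of more restricted expression. Class II molecules, the I-A and I-E dimers, are made by dendritic cells, B cells, macrophages and thymic epithelium, are driven by the transactivator Ciita, and travel with the invariant chain Cd74 before H2-DM exchanges its remnant for peptide. Mouse thymocytes make little class II.

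Library totals ran from 19640524 to 28107031 counts. Levels below are counts scaled to library size (CPM) with TMM factors, and 3 counts correspond to 0.110 to 0.145 CPM. Tcf7 stood at 2088 and 1810 CPM in the controls. It stood at 2340 and 2414 without the p45 isoforms and at 979 and 976 where Tcf1 was deleted. Counts per gene do not separate its isoforms. The DN3 genes Il2ra, Rag1 and Ptcra were detected in every library, at 923 to 1991, 458 to 1621 and 97.3 to 299 CPM. Tcf1-deficient replicate 1 stood apart from replicate 2 in genes of more mature T cells: Cd4 was at 372 CPM in it and 46.1 in replicate 2, against 63.1 to 86.5 in the other 4 libraries, and Foxp3 was at 34.3 CPM in it and 1.44 to 2.32 in the other 5.

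In control DN3 cells, B2m was the most abundant member per kilobase of exon, at a mean of 697 CPM per kb, followed by H2-K1 at 142, Tap2 at 99.1, Tapbp at 61.7, H2-Q4 at 40.0 and H2-D1 at 39.2. Class II was lower: the highest, Cd74, had 19.7 CPM per kb, H2-Ab1 9.94 and H2-Eb1 7.14. On the scale of CPM not divided by length, the 20 class I members summed to 1906 and 2300 in the controls and the 11 class II members to 168 and 99.8. In bulk RNA, fewer cells of a type and less RNA per cell cannot be told apart, and this holds for each level below.

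Within class I, members passed the test against control only in the p45-deficient libraries. H2-Q1 and H2-Q2, a pair of neighbouring nonclassical heavy-chain genes, rose most. H2-T10, H2-T22 and H2-T3 of the H2-T region and the light chain B2m rose less, and the classical H2-K1 and H2-D1 did not pass the test. A gene is called here when edgeR's quasi-likelihood test gave an adjusted p under 0.05 over all 12939 genes tested. By that rule 6 of the 19 class I members tested were higher and none lower, while 8.47% of all genes tested were called higher and 7.55% lower. The median log2 fold change of the 19 was 0.44, against 0.05 over all genes tested. In Tcf1-deficient against control the median of the 19 was larger, at 1.00, with no gene called. The count of 6 depended on the libraries in the fit. It was 2 without control replicate 1 (1.18% of all genes called higher), 3 without control replicate 2 (1.18%), 2 without p45-deficient replicate 1 (0.863%) and 2 without p45-deficient replicate 2 (1.49%). It was 8 without either Tcf1-deficient library, with 14.0% of all genes called higher without replicate 1 and 16.4% without replicate 2, and Tapbp was called lower in both fits.

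H2-Q1 was measured at 3.72 and 3.40 CPM in control replicates 1 and 2, 36.5 and 41.9 in the p45-deficient pair, and 6.33 and 3.58 in the Tcf1-deficient pair. The replicates are given in this order throughout. H2-Q2 was at 14.4 and 9.01 CPM in control, at 98.7 and 121 in p45-deficient, and at 19.7 and 11.5 in Tcf1-deficient libraries. Both p45-deficient libraries lay far above the other 4 for each gene, and the replicates lay close together. The labels give no strain or H2 haplotype. A difference in either between the groups cannot be told apart from genotype, for these or other genes of the MHC region, and was not tested. The fold increase over control was 11.0 for H2-Q1 (log2 3.46, SE 0.30, adjusted p = 0.00192, edgeR's quasi-likelihood test) and 9.41 for H2-Q2 (log2 3.24, SE 0.33, adjusted p = 0.00379). Per kilobase of exon, H2-Q2 went from 5.37 CPM in control to 50.5 in p45-deficient cells, where H2-D1 stood at 49.2, and H2-Q1 from 1.24 to 13.7. Both calls held in all 13 alternative analyses, with log2 fold changes of 3.34 to 3.56 for H2-Q1 and 2.88 to 3.56 for H2-Q2. The 2 genes resemble each other in sequence: 85.0% of the 50-base windows of H2-Q1 transcripts and 83.9% of those of H2-Q2 occur in no other annotated gene, and how reads from the shared remainder were counted is not given in the sources used here.

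H2-T genes followed with smaller increases. H2-T10 and H2-T22 encode closely related nonclassical molecules known as ligands of some gamma-delta T cell receptors, and H2-T3 encodes the thymus leukaemia antigen. H2-T10 was at 12.5 and 12.7 CPM in control, at 38.4 and 37.1 in p45-deficient, and at 33.3 and 17.4 in Tcf1-deficient libraries. It rose 2.99-fold in p45-deficient cells (log2 1.58, SE 0.29, adjusted p = 0.0153, edgeR's quasi-likelihood test), and the Tcf1-deficient libraries lay between the other groups. H2-T22 was low, at 1.06 and 1.07 CPM in control, at 3.09 and 3.26 in p45-deficient, and at 1.45 and 1.54 in Tcf1-deficient libraries, a 2.97-fold rise in p45-deficient cells (log2 1.57, SE 0.41, adjusted p = 0.0423). H2-T3 was at 0.677 and 0.267 CPM in control, at 2.02 and 3.02 in p45-deficient, and at 0.879 and 0.749 in Tcf1-deficient libraries, a 5.34-fold rise (log2 2.42, SE 0.62, adjusted p = 0.0391). For each of these genes the p45-deficient libraries lay above the other 4. Only 49.6% of the windows of H2-T10 and 46.5% of those of H2-T22 are unique, with the 2 genes sharing windows with each other, so their separate values are uncertain; H2-T3 is 99.1% unique.

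B2m was at 494 and 705 CPM in control, at 1313 and 999.8 in p45-deficient, and at 1011 and 865 in Tcf1-deficient libraries. All 4 mutant libraries exceeded both controls. The rise in p45-deficient cells was 1.93-fold (log2 0.95, SE 0.21, adjusted p = 0.0267, edgeR's quasi-likelihood test). The calls of H2-T10, H2-T22 and H2-T3 were lost when any 1 control or p45-deficient library was left out. That of B2m was lost without control replicate 1 or either p45-deficient library.

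The remaining class I members did not pass the test in p45-deficient cells. H2-K1 was at 374 and 461 CPM in control and at 484 and 417 in p45-deficient libraries, which overlap (log2 0.11, SE 0.38). H2-D1 was at 88.1 and 114 CPM in control and at 138 and 116 in p45-deficient libraries (log2 0.33, SE 0.36). H2-T23, which encodes the heavy chain of the Qa-1 molecule, was at 55.3 and 69.5 CPM in control and at 64.7 and 59.4 in p45-deficient libraries. H2-Q4 was at 92.4 and 115 CPM in control and at 156 and 149 in p45-deficient libraries (log2 0.55, SE 0.38), without overlap. Only 63.6% of its windows are unique, with others shared with genes that include H2-Q6, so its value is uncertain. The fit shares its spread with the Tcf1-deficient group, in which these 4 genes differed most between libraries. The transporter genes were nearly level, with Tap1 at 147 and 157 CPM against 169 and 162, and Tap2 at 376 and 374 against 401 and 397. Tapbp was the 1 class I member with both p45-deficient libraries below both controls, at 167 and 161 CPM against 211 and 236. Counted by library alone, 13 of the 19 had both p45-deficient values above both controls, which holds for 37.9% of all genes tested.

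**Figure D1:**
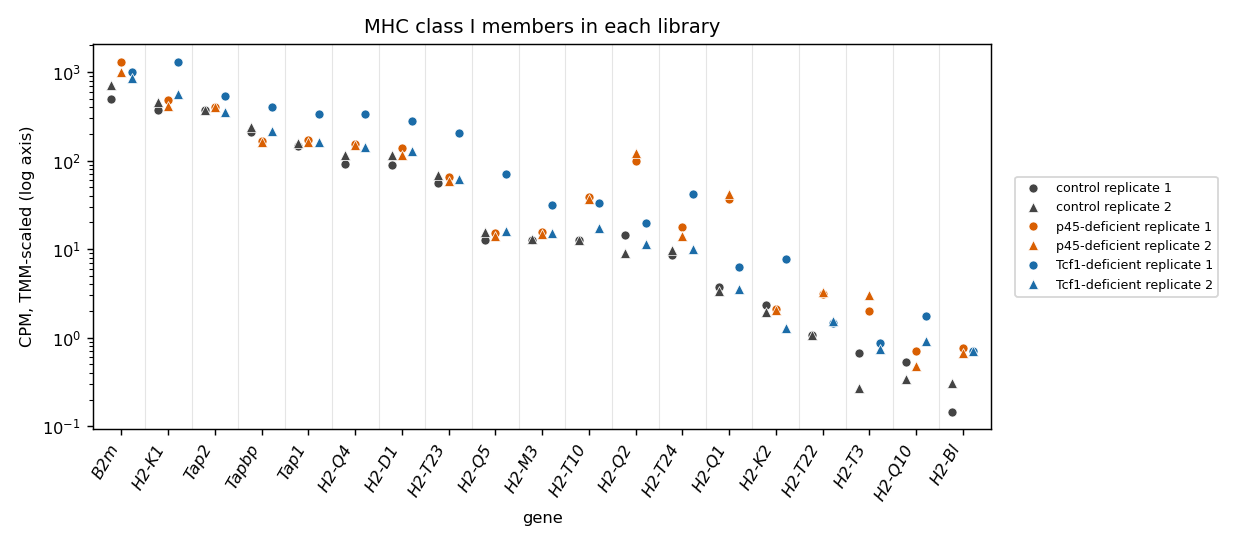
Level of each of the 19 tested class I members in the 6 libraries, in TMM-scaled CPM on a log axis, ordered by the control mean. Circles are replicate 1 and triangles replicate 2. The p45-deficient points stand above all others for H2-Q1 and H2-Q2, and Tcf1-deficient replicate 1 is the highest point for H2-K1, H2-D1, H2-Q4, H2-Q5 and H2-T23.

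The start regions of H2-Q2 and of its neighbour H2-Q4 are shown to set a gene that rose beside one that did not pass the test. The other 2 are those of H2-T22 and B2m, which also rose. Each is the 250 bases before the RefSeq start on GRCm38.p6, written on the gene's own strand, with searched motifs in capitals.
H2-Q2, chr17:35342057-35342306, plus strand: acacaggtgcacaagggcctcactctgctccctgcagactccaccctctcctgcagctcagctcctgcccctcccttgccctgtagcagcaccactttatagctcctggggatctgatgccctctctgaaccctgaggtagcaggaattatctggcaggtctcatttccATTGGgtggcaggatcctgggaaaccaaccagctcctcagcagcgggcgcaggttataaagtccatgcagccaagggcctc
H2-Q4, chr17:35379367-35379616, plus strand: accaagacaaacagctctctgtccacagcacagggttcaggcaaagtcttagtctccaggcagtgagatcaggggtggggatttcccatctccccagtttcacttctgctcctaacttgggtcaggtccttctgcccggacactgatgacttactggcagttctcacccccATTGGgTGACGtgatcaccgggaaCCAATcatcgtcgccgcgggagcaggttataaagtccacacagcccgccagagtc
H2-T22, chr17:36042743-36042992, minus strand: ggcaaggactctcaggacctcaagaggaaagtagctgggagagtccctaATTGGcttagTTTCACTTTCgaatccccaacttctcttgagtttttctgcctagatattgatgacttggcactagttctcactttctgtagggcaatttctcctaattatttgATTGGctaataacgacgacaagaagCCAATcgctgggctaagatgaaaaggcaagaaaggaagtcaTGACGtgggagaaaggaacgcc
B2m, chr2:122147437-122147686, plus strand: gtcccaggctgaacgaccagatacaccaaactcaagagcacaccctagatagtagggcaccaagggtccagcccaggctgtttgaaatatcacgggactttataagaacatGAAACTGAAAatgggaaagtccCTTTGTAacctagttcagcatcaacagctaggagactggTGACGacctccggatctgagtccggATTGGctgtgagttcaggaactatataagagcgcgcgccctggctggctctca
The motifs were searched on both strands and are the letters CCAAT (the Y box), TGACG (the core of the X2 box), GAAA, any 2 bases and GAAA again (an interferon response element), a fixed NF-kB site, and the TCF/LEF form CTTTG followed by AA, AT, TA or TT. The H2-Q2 window holds 1 of these motifs, a CCAAT, where the H2-Q4 window holds CCAAT on each side of a TGACG. The windows of H2-T22 and B2m both hold CCAAT, the X2 core and the interferon response element, and that of B2m also holds a TCF/LEF form. Among the 13 class I members with a RefSeq window, CCAAT occurs in 11 and TGACG in 8. The interferon response element occurs in 3: B2m, H2-T22 and H2-T23, of which H2-T23 was not called in p45-deficient cells (log2 -0.01). The NF-kB site occurs in 2 (H2-K1 and H2-D1) and a TCF/LEF form in 2 (B2m and H2-T3). Of all 27025 windows of this length, 34.5% hold CCAAT, 17.9% TGACG, 3.04% the interferon response element, 0.0814% the NF-kB site and 14.9% a TCF/LEF form. A match describes letters and is not evidence of binding. Only the exact letters were counted, so a window without a match, such as H2-Q4 for the NF-kB site, is not shown to lack that kind of site.

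The called class I genes lie in stretches of the MHC on chromosome 17, apart from B2m on chromosome 2. From Tapbp to H2-M2 in RefSeq order, 28 members and 94 other genes were tested, an interval chosen after the values were seen. H2-Q1 and H2-Q2 are adjacent among the tested genes, between H2-D1 and H2-Q4, which were not called. H2-T22, H2-T10 and H2-T3 lie in a second stretch. Of the 94 other genes, 5 rose and 4 fell in p45-deficient cells, 9.57% against 16.0% of all genes tested. The 5 that rose included 2300002M23Rik, at 0.242 and 0.115 CPM in control, 8.64 and 9.96 in p45-deficient and listed at 0 in both Tcf1-deficient libraries (log2 5.70, SE 0.53, adjusted p = 0.00350 for p45-deficient against control, edgeR's quasi-likelihood test). They also included Gm8909, between H2-T10 and H2-T3, at 0.580 and 0.344 CPM in control, at 5.37 and 3.49 in p45-deficient, and at 2.02 and 0.874 in Tcf1-deficient libraries (log2 3.27, SE 0.61, adjusted p = 0.0154), and Ddr1, a collagen receptor kinase. The lowest points of the interval, the heat-shock genes Hspa1b and Hspa1a, were not called and differed between the controls, at 5.95 and 75.6 CPM for Hspa1b. Of 33 tested genes on a list of other genes of the MHC region, 1 rose (Nrm, log2 0.52, adjusted p = 0.0408) and none fell. Their median log2 fold change was -0.27. Both p45-deficient values lay below both controls for 23 of the 33 and above for 5, against 31.3% and 37.9% of all genes tested.

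**Figure D2:**
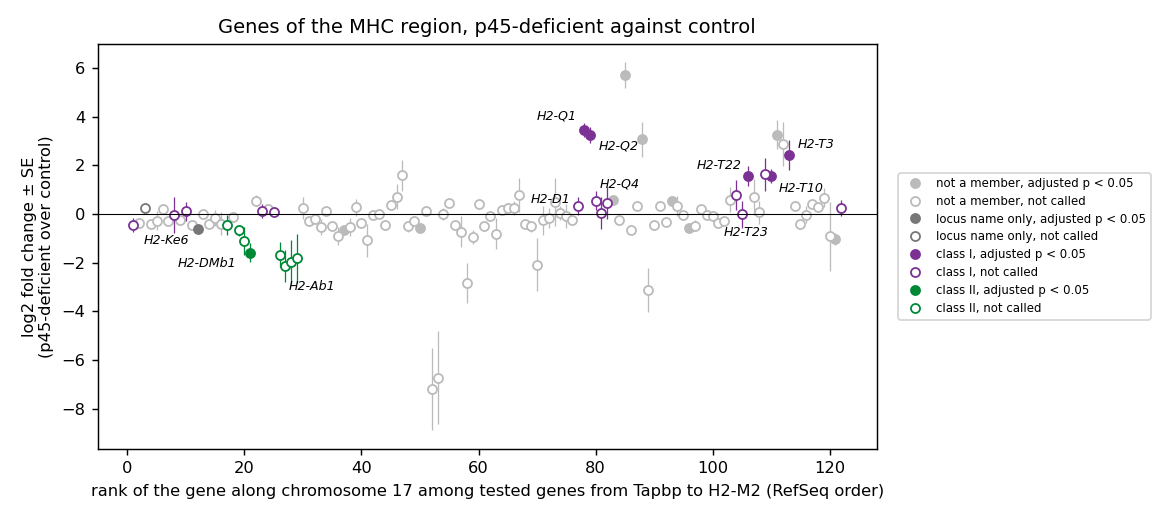
Log2 fold change of p45-deficient over control libraries, with its SE, for the tested genes from Tapbp to H2-M2, by rank along chromosome 17. Filled points passed the test. H2-Q1 and H2-Q2 stand at 3.46 and 3.24 beside uncalled H2-D1 and H2-Q4, and the class II members on the left lie below 0.

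Other genes of the class I pathway were taken from a list of loading and processing factors. Of these 11 genes, 2 rose in p45-deficient cells and none fell, where 8.47% of all genes tested were called higher and 7.55% lower. Pdia3, the disulfide isomerase of the loading complex, was at 325 and 367 CPM in control and at 594 and 520 in p45-deficient libraries (log2 0.69, SE 0.12, adjusted p = 0.0137, edgeR's quasi-likelihood test). The chaperone calnexin, Canx, was at 553 and 581 CPM in control and at 828 and 722 in p45-deficient libraries (log2 0.45, SE 0.12, adjusted p = 0.0481). The immunoproteasome subunit Psmb9, at 78.2 and 77.2 CPM against 116 and 112, did not pass (adjusted p = 0.139). Of 9 regulators of class I, 1 fell, the NF-kB subunit Rela (113 and 118 CPM against 76.4 and 80.8, log2 -0.55, adjusted p = 0.0196), also near the share of all genes called lower. Nlrc5, the class I transactivator, was at 37.8 and 61.8 CPM in control and at 65.8 and 54.8 in p45-deficient libraries, which overlap. Of 5 tested class I-like genes outside H2, Cd1d1, which presents lipids to NKT cells, fell (28.0 and 42.5 CPM against 20.5 and 19.9, log2 -0.81, adjusted p = 0.0411). The summed level of 10 genes of double-positive and mature T cells was 520 and 591 CPM in control, against 652 to 710 in p45-deficient libraries, with none called, and the part of such cells in the class I values was not tested.

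Class II lay lower in p45-deficient libraries. H2-DMb1, a chain of the peptide-exchange molecule H2-DM, fell 3.02-fold, and it was the 1 class II member called. H2-Ab1, H2-Aa and Ciita had larger but less certain differences. Of the 10 class II members tested, 1 was called lower and none higher, where 7.55% of all genes tested were called lower. All 10 had both p45-deficient values below both controls, which holds for 31.3% of all genes tested. It also holds for 23 of the 33 tested genes listed above as other genes of the MHC region. The median log2 fold change was -1.63 for the 10 class II members and -0.27 for those 33. The count of 1 became 0 without any 1 control or p45-deficient library, 7 of 11 then tested without Tcf1-deficient replicate 1 (14.9% of all genes called lower) and 6 without Tcf1-deficient replicate 2 (12.5%).

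H2-DMb1 was at 4.06 and 3.93 CPM in control, at 1.54 and 1.10 in p45-deficient, and at 3.08 and 2.46 in Tcf1-deficient libraries. The 3 groups did not overlap, and the p45-deficient libraries were lowest (log2 -1.59, SE 0.39, adjusted p = 0.0355, edgeR's quasi-likelihood test). The call was lost when any 1 control or p45-deficient library was left out, and 77.3% of its transcript windows are unique, the rest being shared with H2-DMb2. Its partner chain H2-DMa was at 25.7 and 30.3 CPM in control, at 17.6 and 17.7 in p45-deficient, and at 29.8 and 19.6 in Tcf1-deficient libraries (log2 -0.67, adjusted p = 0.0810). H2-DMb2, the second beta chain, was at 2.03 and 1.87 CPM in control and at 0.809 and 1.01 in p45-deficient libraries. H2-Ob and H2-Oa encode H2-O, an inhibitor of H2-DM. H2-Ob was at 6.33 and 7.82 CPM in control, at 2.10 and 2.35 in p45-deficient, and at 13.5 and 4.45 in Tcf1-deficient libraries (log2 -1.67, SE 0.51, adjusted p = 0.0666 for p45-deficient against control). H2-Oa was at 4.50 and 6.34 CPM in control and at 3.71 and 4.16 in p45-deficient libraries.

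The chains of the presenting molecules varied widely within the control group. H2-Ab1, the beta chain of I-A, was at 34.1 and 16.9 CPM in control, at 5.18 and 6.41 in p45-deficient, and at 19.7 and 5.66 in Tcf1-deficient libraries (log2 -2.14, SE 0.64, adjusted p = 0.0739 for p45-deficient against control, edgeR's quasi-likelihood test). H2-Aa, its alpha chain, was at 16.9 and 6.07 CPM in control, at 3.46 and 2.39 in p45-deficient, and at 15.1 and 2.71 in Tcf1-deficient libraries (log2 -1.96, SE 0.89, adjusted p = 0.187). H2-Eb1, the beta chain of I-E, was at 20.1 and 7.63 CPM in control, at 4.48 and 3.40 in p45-deficient, and at 16.8 and 2.08 in Tcf1-deficient libraries. For all 3 the first replicate was the higher one in both the control and the Tcf1-deficient group. The invariant chain Cd74 was at 48.9 and 17.4 CPM in control, at 12.8 and 12.4 in p45-deficient, and at 67.5 and 6.83 in Tcf1-deficient libraries. The transactivator Ciita was at 4.25 and 1.49 CPM in control, at 0.956 and 0.335 in p45-deficient, and at 5.36 and 0.666 in Tcf1-deficient libraries (log2 -2.11, SE 1.06, adjusted p = 0.215 for p45-deficient against control). Neither passed the test. DESeq2 called 5 class II members lower in p45-deficient cells: H2-DMa, H2-DMb1, H2-Ob, H2-Ab1 and H2-Aa, with 12.6% of all genes tested called lower by it. H2-Eb2 was too low to test, with 21 and 4 control counts, 2 and 6 in the p45-deficient pair, and 1 and 4 in the Tcf1-deficient pair.

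**Figure D3:**
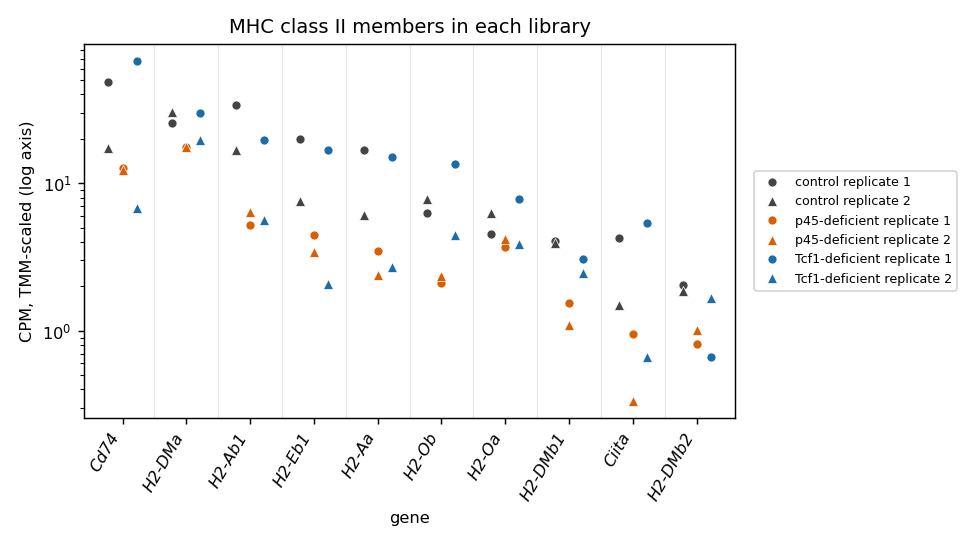
Level of each of the 10 tested class II members in the 6 libraries, in TMM-scaled CPM on a log axis, ordered by the control mean. Circles are replicate 1 and triangles replicate 2. The p45-deficient points lie below both control points for every gene, and Tcf1-deficient replicate 1 lies near the controls for H2-Aa, H2-Eb1 and Cd74 while replicate 2 does not.

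The windows of H2-Aa and H2-Eb1, which moved alike across libraries, are shown beside that of H2-DMb1, the called gene, under the same conditions as those above.
H2-Aa, chr17:34287824-34288073, minus strand: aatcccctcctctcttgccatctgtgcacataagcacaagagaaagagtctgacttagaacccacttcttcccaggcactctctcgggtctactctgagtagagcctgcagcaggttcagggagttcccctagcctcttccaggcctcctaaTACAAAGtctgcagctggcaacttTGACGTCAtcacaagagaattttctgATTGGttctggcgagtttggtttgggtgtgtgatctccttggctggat
H2-Eb1, chr17:34305617-34305866, plus strand: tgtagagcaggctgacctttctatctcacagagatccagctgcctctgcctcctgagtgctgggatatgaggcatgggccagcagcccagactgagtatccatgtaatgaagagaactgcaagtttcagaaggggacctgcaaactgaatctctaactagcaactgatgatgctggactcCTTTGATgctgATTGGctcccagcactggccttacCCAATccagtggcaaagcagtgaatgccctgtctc
H2-DMb1, chr17:34152941-34153190, plus strand: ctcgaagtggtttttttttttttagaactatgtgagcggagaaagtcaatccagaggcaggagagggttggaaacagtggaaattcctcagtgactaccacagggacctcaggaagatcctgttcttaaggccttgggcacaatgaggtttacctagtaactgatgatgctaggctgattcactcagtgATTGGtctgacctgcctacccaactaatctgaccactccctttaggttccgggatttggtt
All 3 hold CCAAT or its reverse complement. The H2-Aa window holds TGACG on both strands, and these matches overlap. H2-Aa and H2-Eb1 each hold a TCF/LEF form, and H2-DMb1 holds none in this window. Among the 8 class II members with a RefSeq window, CCAAT occurs in 7, TGACG in 1 and a TCF/LEF form in 5 (H2-DMb2, H2-Ob, H2-Aa, H2-Eb1 and H2-Eb2). Neither other motif occurs in any, and these counts are to be read against the shares of all windows given above. Only the exact letters were counted, so a window without TGACG is not shown to lack an X2 box.

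Among markers of cells that make class II, B cell and dendritic cell genes summed lower in both p45-deficient libraries than in both controls. Summed macrophage genes overlapped. Thymic epithelial genes summed higher with TMM factors. With library totals they overlapped, at 101 and 88.0 CPM in control against 99.2 and 108 in p45-deficient libraries. Upper-quartile factors gave an overlap too. A few abundant genes made up most of the B cell, dendritic cell and thymic epithelial sums. Of 12 B cell genes, 6 were tested and 1 fell in p45-deficient cells, where 7.55% of all genes tested were called lower. Both p45-deficient values lay below both controls for 4 of the 6 and above for 0, against 31.3% and 37.9% of all genes tested. The 1 called was Cd79a, a chain of the B cell receptor (adjusted p = 0.0393, edgeR's quasi-likelihood test). It was at 5.22 and 0.725 CPM in control, at 0.147 and 0.191 in p45-deficient, and at 1.45 and 0.832 in Tcf1-deficient libraries. The B cell genes summed to 40.9 and 31.3 CPM in control, to 17.7 and 15.4 in p45-deficient, and to 26.1 and 31.7 in Tcf1-deficient libraries. Most of each sum was Cd79b, at 25.7 and 27.1 CPM in control and 15.7 and 13.3 in p45-deficient libraries. In the Tcf1-deficient pair Cd79b was at 17.7 and 28.4 CPM and set the order of the 2 sums. Control replicate 1 held 9 counts of Pax5, the B-lineage factor, and the other 5 libraries 0. Ms4a1 (CD20) had 39 counts there, 5 in control replicate 2, 1 in p45-deficient replicate 2 and 0 in the other 3 libraries. Of the listed B cell genes, Cd79b and Vpreb1 (0.725 and 1.22 CPM) were lower in control replicate 1 than in control replicate 2. The rest were higher there in CPM. Cd22 was highest in Tcf1-deficient replicate 1, at 5.32 CPM against 2.47 in control replicate 1. Of 15 dendritic cell genes, 10 were tested and 1 fell, near the 7.55% of all genes tested that were called lower. It was Cd209a, with 13 and 18 counts in the controls and 0 in each p45-deficient library (adjusted p = 0.0356). The dendritic cell genes summed to 196 and 166 CPM in control, to 163 and 142 in p45-deficient, and to 195 and 128 in Tcf1-deficient libraries. Most of each sum was Bst2 (145 and 121 CPM in control, 114 and 88.0 in p45-deficient) and Ly75 (40.2 and 38.0, then 45.4 and 49.8). Of the 10 tested, 7 had both p45-deficient values below both controls and 1 above, against 31.3% and 37.9% of all genes tested. Their median log2 fold change was -0.94. The integrin Itgax (CD11c) was at 1.45 and 1.56 CPM in control, at 0.772 and 0.766 in p45-deficient, and at 2.42 and 0.499 in Tcf1-deficient libraries. Of 12 macrophage and granulocyte genes, 7 were tested and none was called, with summed levels of 21.3 and 16.4 CPM in control, of 11.9 and 18.3 in p45-deficient, and of 19.6 and 12.9 in Tcf1-deficient libraries. The thymic epithelial factor Foxn1 had 1 count in each of 2 libraries and 0 in the other 4. The 9 thymic epithelial genes summed to 96.3 and 86.3 CPM in control, to 103 and 113 in p45-deficient, and to 78.2 and 125 in Tcf1-deficient libraries. Most of each sum was Epcam, at 65.8 and 71.4 CPM in control and 78.1 and 89.4 in p45-deficient libraries. Of the 7 tested, 1 was called higher in p45-deficient cells, where 8.47% of all genes tested were. It was Prss16, a thymic serine protease, with 2 and 1 counts in control against 61 and 26 (adjusted p = 0.0185, edgeR's quasi-likelihood test). Both p45-deficient values lay above both controls for 4 of the 7, and for 37.9% of all genes tested. They lay below for 1, the uncalled Aire (2.56 and 1.95 CPM against 0.441 and 0.862), and for 31.3% of all genes tested. The part of such cells in the class II values was not tested.

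The class II regulators and processing enzymes were taken from lists of 10 genes each. Of the 10 regulators, 1 rose in p45-deficient cells, Nfyb, a subunit of the factor that binds CCAAT (54.7 and 55.5 CPM against 86.9 and 72.6, log2 0.53, adjusted p = 0.0341, edgeR's quasi-likelihood test), and none fell. That count of 1 in 10 is close to the 8.47% of all genes tested that were called higher. Rfxank, a subunit of the RFX complex of class II promoters, was at 31.4 and 28.2 CPM in control and at 19.8 and 21.2 in p45-deficient libraries (adjusted p = 0.0529), and Rfx5 at 45.3 and 52.6 against 33.0 and 39.3 (adjusted p = 0.0865). Spi1, a myeloid and B cell factor, was at 2.47 and 1.64 CPM against 0.478 and 0.910. None of the 10 processing genes, which include the cathepsins, was called by edgeR's quasi-likelihood test, and 1 had an unadjusted p under 0.05, a level reached by 33.8% of all genes tested. The median log2 fold change was -0.07 for the regulators and 0.02 for the processing genes.

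H2-Ke6, which encodes the dehydrogenase Hsd17b8, was at 39.9 and 45.3 CPM in control, at 28.3 and 26.7 in p45-deficient, and at 44.3 and 34.6 in Tcf1-deficient libraries. It fell in p45-deficient cells (log2 -0.63, SE 0.16, adjusted p = 0.0409, edgeR's quasi-likelihood test), a call lost without any 1 control or p45-deficient library, and only 29.5% of its windows are unique. H2-Ke2, a prefoldin subunit, was at 71.8 and 65.3 CPM in control and at 82.5 and 80.4 in p45-deficient libraries and was not called.

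Of the 15 class I H2 genes tested, 11 had both Tcf1-deficient values above both controls, which holds for 16.4% of all genes tested. In the other 4 (H2-K2, H2-T23, H2-Q1 and H2-Q2) the groups overlapped. No member passed edgeR's quasi-likelihood test, which called 0% of all genes in this comparison. At an unadjusted p under 0.05 there were 7 of 19 class I members, all higher (H2-T10, B2m, H2-Q4, H2-K1, H2-M3, H2-D1 and H2-Q10), and none of 10 class II members, where 7.91% of all genes tested reached that level in either direction. DESeq2 called H2-K1 and H2-Q4 higher, with 0.662% of the genes for which it gave an adjusted p called higher. The median log2 fold change of the 19 class I members was 1.00.

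H2-K1 was at 1302 and 565 CPM in Tcf1-deficient replicates 1 and 2, against 374 and 461 in control (log2 1.16, SE 0.38, adjusted p = 0.613, edgeR's quasi-likelihood test). H2-D1 was at 280 and 129 CPM against 88.1 and 114, and H2-Q4 at 337 and 143 against 92.4 and 115. In all 3 both Tcf1-deficient libraries exceeded both controls, replicate 2 by little. H2-T23 was at 207 and 62.3 CPM, H2-Q5 at 70.4 and 15.9, H2-T24 at 41.8 and 10.2 and H2-M3, which presents formylated peptides, at 31.6 and 15.2. For H2-T23 replicate 2 lay within the control range of 55.3 to 69.5 CPM. Only 63.6% of the windows of H2-Q5 are unique, with others shared with genes that include H2-Q7. H2-K2 was at 7.65 and 1.29 CPM, the second below both controls (2.32 and 1.95), and the low H2-Q10 at 1.76 and 0.916. The peptide transporter followed, with Tap1 at 331 and 162 CPM, Tap2 at 534 and 352 and Tapbp at 407 and 216. Over the 19 genes replicate 1 exceeded replicate 2 in 17, by a median ratio of 1.89, where the median was 1.05 between the p45-deficient and 0.936 between the control libraries. H2-T22, at 1.45 and 1.54 CPM, and H2-Bl, at 0.703 and 0.707 CPM against 0.145 and 0.305 in control, did not show that split.

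By library alone, 13 of the 19 class I members had both Tcf1-deficient values above both controls, which holds for 16.4% of all genes tested. The size rested on replicate 1. With Tcf1-deficient replicate 2 left out, edgeR's quasi-likelihood test called 12 of the 19 higher, with 4.93% of all genes tested called higher. With replicate 1 left out it called none, with 0.0972% of all genes tested called higher, and the class I median log2 fold change was 1.39 in the first of these fits and 0.25 in the second. In each, the lone library is assumed to vary like the other groups.

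Several regulators of class I and genes of more mature lymphocytes were also higher in Tcf1-deficient replicate 1 than in replicate 2. Nlrc5 was at 290 CPM there, 69.1 in replicate 2 and 37.8 to 65.8 in the other 4 libraries. Irf1, an interferon-induced transcription factor, was at 272 CPM there and at 119 to 225 in the other 5. Rela, at 108 CPM in replicate 1 and 114 in replicate 2, and the interferon-gamma receptor chain Ifngr1, at 348 and 422, were lower in replicate 1. The 10 double-positive and mature T cell genes summed to 1253 CPM in replicate 1 and 713 in replicate 2, against 520 and 591 in control, with the egress genes Ccr7 at 123 and 12.4 CPM and S1pr1 at 94.7 and 7.28. The 11 natural killer and innate lymphoid genes summed to 327 and 225 CPM, against 169 and 194 in control, with Gzmb at 73.5 and 4.41 CPM and the defining Ncr1 and Klra8 at 0 counts in both. None of these lists had a gene called, with 3 of 10, 4 of 8 and 1 of 9 tested genes at an unadjusted p under 0.05 for the T cell, natural killer and class I regulator lists. The part of other cells in the class I values was not tested.

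**Figure D4:**
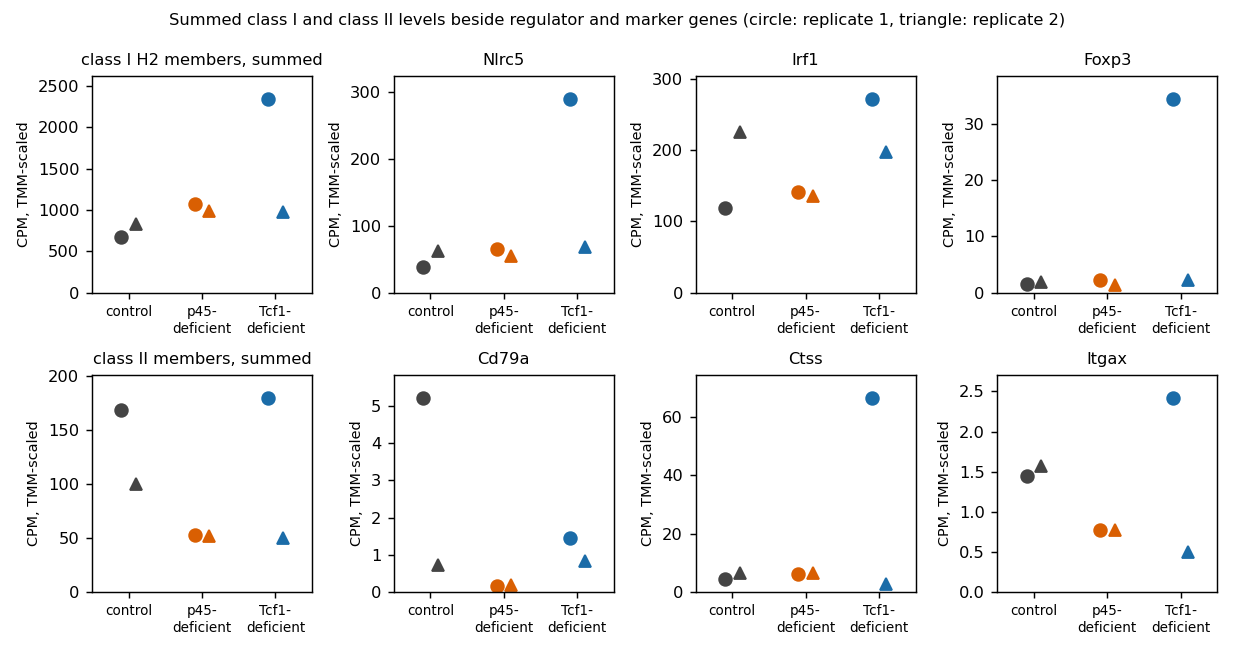
TMM-scaled CPM in each library for the summed class I H2 genes and the summed class II members, beside Nlrc5, Irf1, Foxp3, Cd79a, Ctss and Itgax. Circles are replicate 1 and triangles replicate 2. Tcf1-deficient replicate 1 is the highest point for summed class I H2 genes (2342), Nlrc5 (290), Irf1 (272), Foxp3 (34.3) and Ctss (66.6), and control replicate 1 for Cd79a (5.22).

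Within the Tcf1-deficient pair, class II was at the level of control replicate 1 in one library and of the p45-deficient libraries in the other. The 11 members summed to 179 CPM in replicate 1 and 50.1 in replicate 2, against 168 and 99.8 in control and, without the p45 isoforms, 52.7 and 51.5. Replicate 1 exceeded replicate 2 in 9 of the 10 tested, by a median ratio of 3.05, with Cd74 9.89-fold apart. H2-DMb2 went the other way, at 0.659 and 1.66 CPM. Both Tcf1-deficient values lay below both controls for H2-DMb1 and H2-DMb2, 2 of 10, where 18.0% of all genes tested do. The median log2 fold change was -0.27, and it turned to 0.34 without Tcf1-deficient replicate 2 and 0.04 without control replicate 1. Cathepsin S (Ctss), which trims the invariant chain in antigen-presenting cells, was at 66.6 CPM in replicate 1 and 2.79 in replicate 2, against 4.54 to 6.61 in the other 4 libraries, and the costimulatory Cd86 had 190 and 5 counts. The part of antigen-presenting cells in these values was not tested.

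Of the members, H2-Q1 and H2-Q2 had the largest log2 differences between the mutants. Both were lower in Tcf1-deficient than in p45-deficient cells, by log2 -2.98 (SE 0.29, adjusted p = 0.00368, edgeR's quasi-likelihood test) and log2 -2.82 (SE 0.32, adjusted p = 0.00730). They were the 2 of 19 class I members called, where 5.36% of all genes tested were called lower and 5.05% higher. This comparison shares the p45-deficient libraries with the one against control. The calls held in all 13 alternatives, with log2 values of -3.40 to -2.64 for H2-Q1 and -3.20 to -2.50 for H2-Q2. The values in Tcf1-deficient libraries, 3.58 to 6.33 CPM for H2-Q1 and 11.5 to 19.7 for H2-Q2, lay within or just above those of the controls, with log2 fold changes over control of 0.48 (SE 0.29) and 0.42 (SE 0.31).

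H2-T22 and H2-T3 also lay lower in both Tcf1-deficient than in both p45-deficient libraries, by log2 -1.08 (SE 0.40) and -1.62 (SE 0.59), and did not pass edgeR's quasi-likelihood test (adjusted p = 0.120 and 0.114). The heavy chains H2-K1 and H2-D1 lay higher, by log2 1.05 (SE 0.38) and 0.69 (SE 0.36), also uncalled. Of the 10 class II members none was called. The nearest was H2-Ob, with log2 2.02 (SE 0.52, adjusted p = 0.0513). The class I median of 0.63 turned to -0.04 without Tcf1-deficient replicate 1. Without Tcf1-deficient replicate 2, 11 class I and 5 class II members were called higher, with 12.1% of all genes called higher. Of the pathway genes, Canx (log2 -0.49) and Pdia3 (log2 -0.57) were called lower in Tcf1-deficient than in p45-deficient cells, as was Cst3 (log2 -0.47), an inhibitor of cathepsins, and Rela (log2 0.50) and Cd1d1 (log2 0.88) were called higher.

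**Figure D5:**
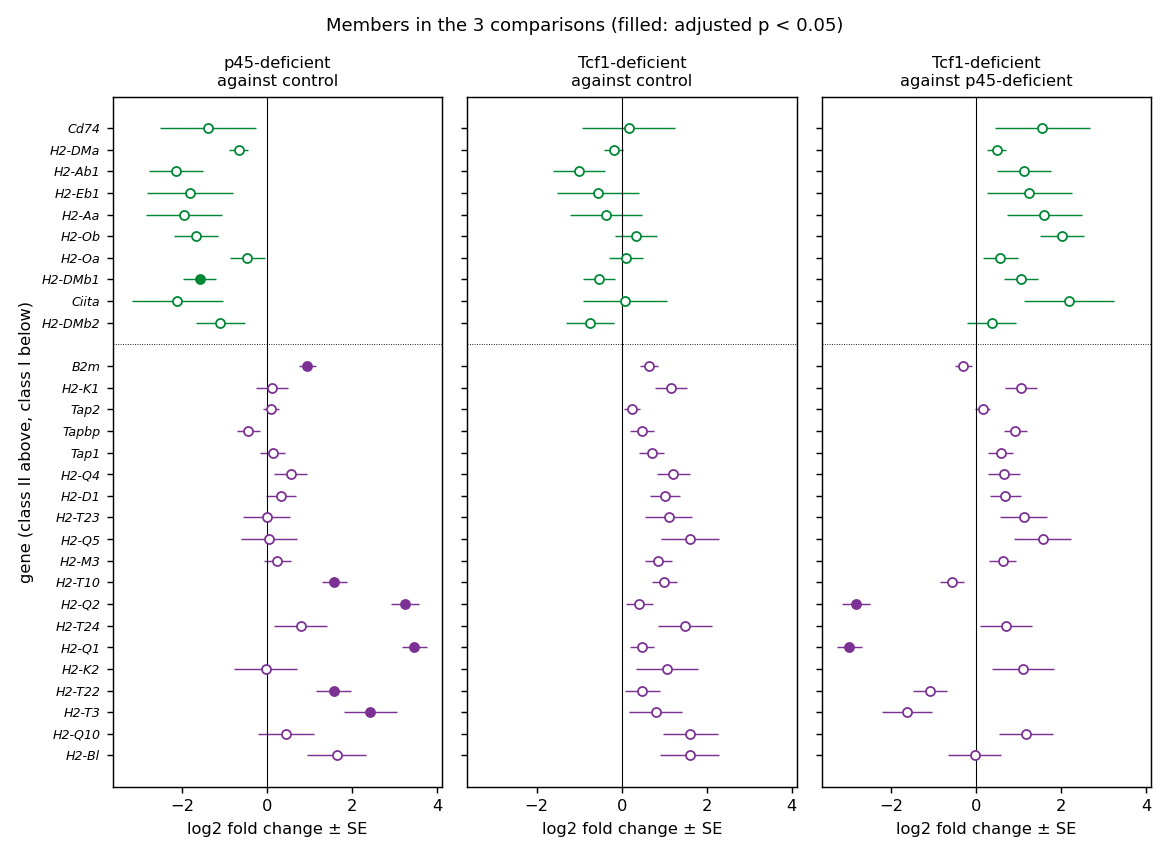
Log2 fold change with its SE for the 29 tested class I and class II members in the 3 comparisons, class II above and class I below. Filled points passed edgeR's quasi-likelihood test at an adjusted p under 0.05. H2-Q1 and H2-Q2 are filled at 3.46 and 3.24 in p45-deficient against control and at -2.98 and -2.82 in Tcf1-deficient against p45-deficient cells, and no point is filled in Tcf1-deficient against control.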

How the data were processed

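The deposited files hold raw read counts per gene symbol, as the authors counted them. Per the submitters' processing notes, the tools include TopHat2 and featureCounts 1.5.0-p3, and the build is mm9. For the annotation, the strand setting and multiply mapped reads, the choice is not given in the sources used here. Libraries were grouped by labelled genotype. From the counts, edgeR 4.0.16 (R 4.3.3) computed TMM factors, filtered low genes (filterByExpr) and fitted the robust quasi-likelihood model over 3 groups and 6 libraries, leaving 3 residual degrees of freedom. Benjamini-Hochberg adjustment ran over all 12939 tested genes, with a threshold of 0.05. The script was tested on simulated data. Alternatives were DESeq2 1.42.0, other scalings, no filter, a replicate block, only the 2 groups compared, and each library left out. Summed levels have no test, since 2 libraries against 2 cannot give an exact permutation p below 0.333.

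The members and gene lists were chosen with earlier results of these data known. Named were all members and, from each other list, up to 4 tested genes with the smallest p in a comparison, genes called, and defining markers. Others (Hspa1a, Hspa1b, 2300002M23Rik, Gm8909 and Ddr1) were chosen after their values were seen. Of 171 listed symbols, 167 are in the files. A gene counted among the class I regulators is not reported here by name. Promoter windows are those of RefSeq on GRCm38.p6, matched by symbol for 22 of 33 members, and describe no position on mm9. Exon lengths and 50-base windows come from the GENCODE M21 annotation. The 2 libraries of each group differed by more than counting noise (chi-square per degree of freedom 41.2 for control, 10.3 for p45-deficient, 78.2 for Tcf1-deficient libraries), so none was treated as a library deposited more than once. That does not show that they came from different mice.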

Additional observations from a re-analysis of the deposited data

How the results depend on the processing

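With 2 libraries a group, single libraries set most counts. Leaving out 1 library in turn gave 258 to 3923 genes called in p45-deficient against control, 0 to 894 in Tcf1-deficient against control and 105 to 3437 in Tcf1-deficient against p45-deficient cells. The class I calls ran from 2 to 9, 0 to 12 and 2 to 13 in these comparisons, and the class II calls from 0 to 7, 0 to 0 and 0 to 5. In p45-deficient against control, class II calls were 5 with DESeq2, 3 with no filter, 7 with only the 2 groups fitted and 0 with the replicate block, and 3907 genes were called with only the 2 groups fitted. In Tcf1-deficient against control, 145 genes were called with DESeq2, 33 with no filter, and 2 class I members with DESeq2. In Tcf1-deficient against p45-deficient cells, DESeq2 called 2551 genes and 4 class I members, fitting only the 2 groups called 488 genes, and DESeq2, RLE factors, library totals, upper-quartile factors and no filter each called 1 class II member. The cause of these moves was not tested.

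The labels do not say what the replicate numbers mark. Same-numbered deviations correlated at -0.0141, -0.0504 and -0.0286 between groups, which shows no deviation shared over all genes. It cannot tell whether same-numbered libraries were collected or handled together. Under the block the calls of H2-T22, H2-T3, H2-DMb1 and H2-Ke6 in p45-deficient against control were lost, and that of H2-T22 also with library totals, upper-quartile factors or no filter. With the replicate block, 1613, 0 and 920 genes, 4, 0 and 2 class I members and no class II member were called. Scaling moved the split of calls in p45-deficient against control from 1096 higher and 977 lower (TMM) to 893 and 1092 (RLE factors), 820 and 1175 (upper-quartile factors) and 721 and 1281 (library totals), and the median of all genes from 0.05 to -0.06 on the log2 scale. The median of class II members in Tcf1-deficient against control ran from -1.39 to 0.34 over the libraries left out, and that of class I members in Tcf1-deficient against p45-deficient cells from -0.0355, without Tcf1-deficient replicate 1, to 1.05. The 10 called member results kept their direction in all 130 alternative values and were called in 100. Of the 1078 alternative values of the 83 uncalled results, 52 changed direction and 73 were called.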
